A study of Mus musculus with 18 samples.

Results

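Semaphorins, plexins and neuropilins are the ligands, receptors and co-receptors of a guidance system, and their transcripts were followed here through radial glia, intermediate progenitors and neurons of the embryonic mouse neocortex, with and without EPIREGULIN. The genes were chosen by symbol alone: all semaphorins of classes 3 to 7, all plexins and both neuropilins, which gave 31 genes among 55416 in the table. They comprise 20 semaphorins (7 secreted ones of class 3 and 13 membrane-bound ones of classes 4 to 7), 9 plexins and 2 neuropilins. Every sample came from wild-type C57BL/6J embryos at E14.5, whose brain hemispheres were kept for 24 h in rotating culture, either with no addition (Ctl) or with human recombinant EPIREGULIN, a growth factor of the EGF family, at 50 ng/mL (Epi). From each culture 3 populations were then isolated, labelled radial glia (RG), intermediate progenitor (IP) and neuron (N), which gave the 6 groups Ctl RG, Epi RG, Ctl IP, Epi IP, Ctl N and Epi N with 3 biological replicates each. How the populations were told apart, and how many embryos stand behind a replicate, is not given in the labels. RG, IP and N libraries from the same culture are not independent, and the main fit has no term for this. If replicates also share embryos or a culture, the p-values below measure only the spread between these samples.

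Semaphorins are guidance proteins that share a large binding module, the sema domain. They bind plexins, receptors that span the membrane and whose inner part switches off small GTPases of the Ras and Rap type, which loosens adhesion and collapses the growing tip of an axon. Most secreted semaphorins of class 3 need a neuropilin, which has no signalling part of its own, to hold them to a plexin, whereas the membrane-bound classes bind plexins directly. In the developing cortex these proteins steer axons and dendrites and take part in the migration of neurons.

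Total counts per library ranged from 15.5 to 34.2 M, and the 31 genes together took 0.153% to 0.379% of them. Levels are given as CPM, read counts scaled for the depth of the library, and compare libraries for 1 gene. The labels were checked on markers: the 14 markers of radial glia summed to values between 5583 and 6698 CPM in Ctl RG, between 492 and 528 in Ctl IP and between 299 and 339 in Ctl N. Eomes, the transcription factor of intermediate progenitors, stood at 17.4 ± 3.27, 122 ± 32.7 and 10.02 ± 3.44 CPM in Ctl RG, IP and N (SD, n = 3). The whole list of 12 IP markers did not set IP above N, with sums between 380.2 and 443 CPM in Ctl RG, between 932 and 1083 in Ctl IP and between 951 and 1295 in Ctl N. Insm1 (32.2, 93.0 and 274 CPM in Ctl RG, IP and N) and Neurod1 (1.61, 109 and 220.2) were highest in N. Mki67, a gene of dividing cells, stood at 523, 51.0 and 8.89 CPM. The population labelled IP also carried neuronal transcripts: 12 neuron markers summed to values between 11156 and 12527 CPM in Ctl IP and between 10415 and 10835 in Ctl N, against between 369.9 and 419 in Ctl RG. IP below therefore names the labelled population only. Steps, rises and falls between populations below compare labelled libraries and give no order in time. The 8 markers of Cajal-Retzius cells, early neurons of the marginal zone, lay between 14.6 and 18.8 CPM in Ctl RG. They lay between 295 and 363 in Ctl IP and between 40.2 and 68.1 in Ctl N, so they too were highest in IP, as were some genes below. The proportions differed between genes: Sema6a averaged 46.4, 78.9 and 29.7 CPM in Ctl RG, IP and N. Nrp2 ran from 3.69 to 5.19 CPM in Ctl RG, 71.1 to 95.4 in Ctl IP and 24.1 to 37.6 in Ctl N. Plxnd1 ran from 5.12 to 8.49, 42.9 to 60.3 and 6.96 to 21.4 CPM in those groups. The means of Nrp2 and Plxnd1, like the Cajal-Retzius sums, were lowest in RG, while that of Sema6a was lowest in N. The 8 mural markers, of cells around blood vessels, lay between 106 and 113 CPM in Ctl RG, between 11.3 and 17.9 in Ctl IP and between 8.77 and 11.4 in Ctl N, and the 8 meningeal ones between 16.5 and 18.5, between 7.01 and 10.1 and between 6.87 and 8.18, both highest in RG, as were several genes below. Most of the mural sum was Notch3 (85.7, 5.86 and 2.69 CPM in Ctl RG, IP and N). Pdgfrb (11.7, 1.66 and 1.05) and Cspg4 (7.37, 2.55 and 2.08) were also highest in RG, while Kcnj8 (0.499, 0.675 and 1.02), Abcc9 (1.47, 1.35 and 1.75) and Rgs5 (0.928, 0.923 and 0.611) were low throughout. The part of these lists in the results was not tested. In such bulk samples fewer cells of a type and less RNA per cell cannot be told apart. The 10 endothelial markers summed to 12.4 to 23.3 CPM and the 12 macrophage and microglia markers to 5.82 to 11.7 CPM over all 18 libraries. The 3 Ctl IP libraries were the least alike of any group, with correlations of 0.959 to 0.974 across 11210 genes (all other pairs within a group, 0.976 to 0.991), and results that lean on 1 of them are given without it.

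The population labelled IP was first set against RG in control cultures. A gene was called at an adjusted p under 0.05 in edgeR's quasi-likelihood test, with Benjamini-Hochberg adjustment over all 29355 genes tested, which included all 31 genes here. Of the 31, 19 were higher in IP and 8 lower, where 41.3% of all genes were called, 22.7% as higher and 18.6% as lower. Their median log2 fold change was 1.11, against -0.06 over all genes. Without replicate 1, 2 or 3 of Ctl IP the calls were 26, 24 and 24 in place of 27. The share of all genes called in those fits is not set beside them. Well-expressed genes are called more often: where the mean log2 CPM reached 1, 61.5% of 16079 genes were called, and 26 of the 27 guidance genes at that level. Between control N and control IP, 5 were higher in N and 5 lower, where 10.3% of all genes were called, 2.60% as higher and 7.74% as lower. The median of the 31 was 0.18, against 0.03 over all genes. Where the mean log2 CPM reached 1, 16.4% were called, and 10 of the 27. Upper-quartile factors made 1157 of 3118 called genes higher in N, in place of 762 of 3035, and left the 31 at 5 and 5. With the replicate number as a block, 16 of the 31 were called between N and IP, 8 in each direction, where 15.8% of all genes were called. In control N against control RG, 17 were higher and 5 lower, where 38.7% of all genes were called. The median was 1.06, against 0.06 over all genes. Where the mean log2 CPM reached 1, 59.4% were called, and 22 of the 27. These 3 comparisons share libraries pairwise, so their values are set side by side and are not independent of each other.

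**Figure D1:**
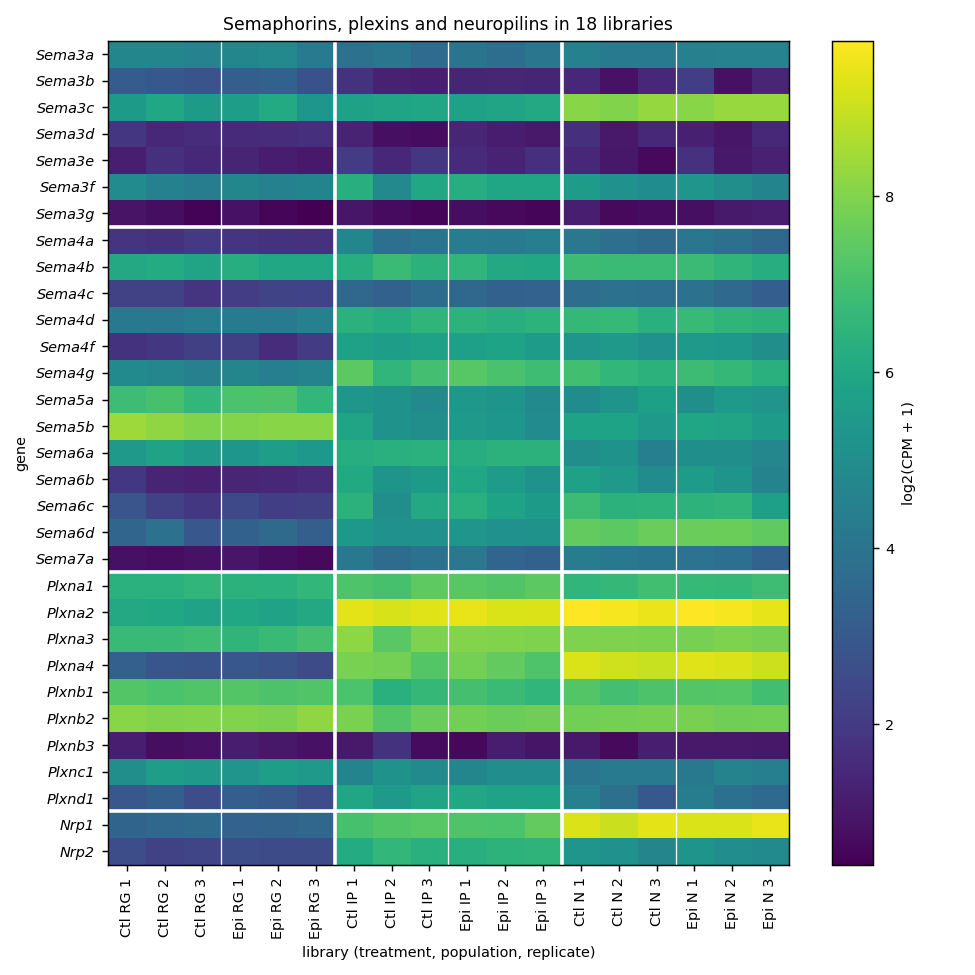
Level of the 31 genes in each of the 18 libraries, as log2(CPM + 1) by colour, with genes in rows (secreted semaphorins, membrane-bound semaphorins, plexins, neuropilins, parted by white lines) and libraries in columns (thick lines part RG, IP and N, thin lines Ctl and Epi). The columns of Ctl and Epi look alike within a population, Plxna2, Plxna4 and Nrp1 are brightest in N, and Sema5b is brightest in RG.

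The neuropilins were both scarce in radial glia and then parted. Gene positions here and below are on GRCm39. Nrp1 (ENSMUSG00000025810, chromosome 8, 129085085 to 129229844), the co-receptor for Sema3a and Sema3c that also binds VEGF-A, stood at 9.72, 10.7 and 11.3 CPM in Ctl RG, 129.8, 150.0 and 162 in Ctl IP and 615, 518 and 669.7 in Ctl N. The 3 populations did not overlap, and each step was upward. Its log2 fold change (± SE, as for every log2 fold change below) was 3.80 ± 0.15 (adjusted p = 2.75e-15) from RG to IP and 2.03 ± 0.13 (adjusted p = 1.75e-09) from IP to N. Nrp2 (ENSMUSG00000025969, chromosome 1, 62742444 to 62857854), the co-receptor for Sema3f, stood at 5.19, 3.69 and 4.08 CPM in Ctl RG, 71.1, 95.4 and 80.9 in Ctl IP and 37.6, 34.3 and 24.1 in Ctl N. It too rose from RG to IP in every library, by 4.23 ± 0.19 (adjusted p = 2.38e-14), but from IP to N it fell, at -1.37 ± 0.16 (adjusted p = 2.45e-06). In the Epi cultures Nrp1 stood at 9.06, 9.31 and 10.3 CPM in Epi RG, 143, 139 and 182 in Epi IP and 601, 609.5 and 709 in Epi N, and Nrp2 at 5.19, 4.83 and 4.88 CPM in Epi RG, 76.4, 87.3 and 88.5 in Epi IP and 37.3, 31.0 and 27.8 in Epi N. The order of the populations was the same there for both genes.

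The divergence shows in the number of Nrp1 reads per Nrp2 read, which needs no scaling between libraries. It was 1.87, 2.89 and 2.77 in Ctl RG, 1.82, 1.57 and 2.002 in Ctl IP and 16.4, 15.1 and 27.8 in Ctl N. Treated libraries gave 1.75, 1.93 and 2.11 in Epi RG, 1.87, 1.59 and 2.06 in Epi IP and 16.1, 19.6 and 25.5 in Epi N. The ratio in N lay above every ratio in RG and IP, with means of 19.7 ± 6.98 in Ctl N and 1.80 ± 0.216 in Ctl IP (SD, n = 3; two-sided exact permutation test, p = 0.1, the smallest that 3 against 3 can give). The ratios of Ctl IP and Ctl RG overlapped (exact permutation p = 0.2). In treated cultures the exact permutation p was 0.1 for N against IP and 0.6 for IP against RG. Over these 4 tests the adjusted p lay between 0.200 and 0.600. None could have passed, because the smallest possible p, 0.1, lies above the threshold for a call, so these tests decide nothing. They also ignored the replicate numbers, and the ratio joins genes already called in opposite directions from IP to N. Within N the ratio was highest in replicate 3 of both treatments. In that replicate 10 interneuron markers summed to 17.1 CPM in Ctl N and 21.9 in Epi N, against 67.6 to 219 in the other N libraries, and their part in the ratio was not tested.

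**Figure D2:**
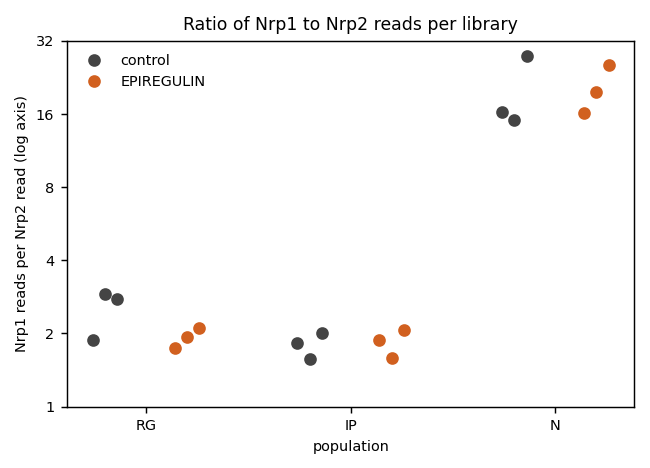
Reads of Nrp1 per read of Nrp2 in each library (points, log axis) by population, control in grey and EPIREGULIN in orange, replicates 1 to 3 from left to right. RG and IP libraries lie between 1.57 and 2.89, and N libraries between 15.1 and 27.8.

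The stretches upstream of the neuropilin genes are shown because both genes rose together into IP and then moved apart. They are the 250 bases before the RefSeq start site on GRCm38.p6, a build older than that of the counts, written 5′ to 3′ along the gene. Capitals mark matches, on either strand, to CAGATG (an E-box used by NEUROD and NEUROG factors; CATCTG on the other strand), TGGGAA (RBPJ; TTCCCA) or GGTGTGA (T-box factors such as EOMES and TBR1; TCACACC).
Nrp1 (chr8:128358823-128359072, plus strand): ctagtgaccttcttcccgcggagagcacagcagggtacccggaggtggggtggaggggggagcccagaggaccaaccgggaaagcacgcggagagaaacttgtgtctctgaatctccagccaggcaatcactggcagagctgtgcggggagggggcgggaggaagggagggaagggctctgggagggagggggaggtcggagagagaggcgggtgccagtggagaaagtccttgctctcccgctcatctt
Nrp2 (chr1:62703067-62703316, plus strand): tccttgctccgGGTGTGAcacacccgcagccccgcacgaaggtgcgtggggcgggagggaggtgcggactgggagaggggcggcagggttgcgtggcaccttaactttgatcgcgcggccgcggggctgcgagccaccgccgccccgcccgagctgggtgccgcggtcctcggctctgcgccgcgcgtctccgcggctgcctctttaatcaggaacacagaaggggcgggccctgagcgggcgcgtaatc
The Nrp1 stretch holds none of the 3 motifs, and the Nrp2 stretch holds 1 T-box match. RefSeq promoters were matched for 26 of the 31 genes, 37 stretches in all with alternative starts. CAGATG was in 2 of the 37, or 5.41%, where 14.4% of 32851 promoters of that length held it. TGGGAA was in 6, or 16.2%, against 21.6%, and GGTGTGA in 2, or 5.41%, against 3.33%. A match is only a match of letters, and its absence says only that these letters are not in this window.

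Plexins of class A, the partners of the neuropilins, were higher in IP than in RG in all 4 cases. Plxna4 (ENSMUSG00000029765, chromosome 6, 32121203 to 32565127), which relays Sema3a through Nrp1, stood at 8.72, 6.59 and 6.07 CPM in Ctl RG, 234, 226 and 153 in Ctl IP and 601, 541 and 508 in Ctl N. RG libraries held little of it, and the 3 populations did not overlap. The log2 fold change was 4.83 ± 0.20 (adjusted p = 1.03e-14) into IP and 1.43 ± 0.17 (adjusted p = 2.71e-06) from IP to N. Plxna2, a receptor for Sema6a, went from 61.1 ± 5.86 CPM in Ctl RG to 626 ± 39.1 in Ctl IP (SD, n = 3), a log2 fold change of 3.36 ± 0.13 (adjusted p = 3.11e-15). It reached 792 ± 79.5 in Ctl N, where the step from IP, 0.34 ± 0.12, did not pass (adjusted p = 0.0733) except with the replicate block (adjusted p = 0.00742). About 15.4% of its exonic bases lie over a gene on the other strand, from which reads of these unstranded libraries cannot be told apart. Plxna3, which pairs with Nrp2 for Sema3f, was at 108 ± 7.41 CPM in Ctl RG, 233 ± 63.1 in Ctl IP and 247 ± 3.46 in Ctl N, higher in IP by 1.11 ± 0.15 (adjusted p = 1.66e-06). Plxna1, a receptor for Sema6d, stood at 81.9, 83.0 and 92.6 CPM in Ctl RG, 144, 131 and 172 in Ctl IP and 93.6, 98.2 and 122 in Ctl N. It peaked in IP, at 0.80 ± 0.13 (adjusted p = 1.57e-05) against RG and -0.51 ± 0.13 (adjusted p = 0.00823) from IP to N. The second call was lost when only the compared groups entered the fit (adjusted p = 0.0622), without replicate 3 of Ctl IP (0.0716), and without replicate 1 (0.0604) or 2 (0.0515) of Ctl N. Summed over the 4 genes, class A plexins made up 262 ± 6.73 CPM in Ctl RG, 1212 ± 113 in Ctl IP and 1694 ± 115 in Ctl N.

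Plxnb1, Plxnb2 and Plxnc1 were lower in IP than in RG, and Plxnd1 peaked in IP. Plxnb1, the receptor for Sema4d, stood at 154, 139 and 148 CPM in Ctl RG, 138, 79.4 and 98.4 in Ctl IP and 153, 126 and 140.3 in Ctl N. IP libraries lay below all RG libraries, and N overlapped both. Its log2 fold change into IP was -0.48 ± 0.16 (adjusted p = 0.0173), a call lost without replicate 2 of Ctl IP (adjusted p = 0.134), which held its lowest value, and also without replicate 3 of Ctl IP (0.0748), without replicate 1 of Ctl RG (0.0557) or with only the compared groups in the fit (0.0524). Plxnb2, a receptor known from neural progenitors, was at 262 ± 9.85 CPM in Ctl RG, 195 ± 39.4 in Ctl IP and 222 ± 4.63 in Ctl N, with -0.43 ± 0.12 (adjusted p = 0.00629) into IP and an adjusted p of 0.0560 without the same library. Plxnb3 was near 0.922 CPM in Ctl RG, where libraries held 12 to 52 reads of it, and passed no comparison of populations. With the replicate block Plxnb1 was higher in N than in IP (0.42 ± 0.12, adjusted p = 0.0168).

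Plxnc1, the receptor for Sema7a, stood at 31.6, 49.0 and 43.6 CPM in Ctl RG, 23.8, 36.0 and 28.8 in Ctl IP and 15.8, 18.3 and 17.5 in Ctl N. Its mean fell from RG to IP to N, and N lay below every RG and IP library. From RG to N it fell by 1.27 on the log2 scale (adjusted p = 2.62e-06), and from IP to N by 0.78 (adjusted p = 0.00385). The step from RG to IP, -0.49 ± 0.17 (adjusted p = 0.0245), rested on overlapping libraries. It was lost without replicate 1 (0.150) or 3 (0.0745) of Ctl IP, without replicate 2 (0.169) or 3 (0.0855) of Ctl RG, and with only the compared groups in the fit (0.0534; adjusted p in each case). Plxnd1 (ENSMUSG00000030123, chromosome 6, 115931772 to 115971966), which binds Sema3e without a neuropilin and is best known from blood vessels, stood at 6.63, 8.49 and 5.12 CPM in Ctl RG, 60.3, 42.9 and 57.1 in Ctl IP and 21.4, 13.5 and 6.96 in Ctl N. IP libraries lay above all others, 3.00 ± 0.30 (adjusted p = 2.01e-08) against RG and -1.94 ± 0.29 (adjusted p = 4.22e-05) for N against IP. N against RG was 1.06 ± 0.29 (adjusted p = 0.00549), with overlapping libraries, and was lost without replicate 1 of Ctl N (adjusted p = 0.0981). Endothelial markers lay between 17.7 and 23.3 CPM in Ctl RG, between 16.7 and 17.6 in Ctl IP and between 15.7 and 19.1 in Ctl N. Cajal-Retzius markers, like Plxnd1, were highest in IP, between 14.6 and 18.8, between 295 and 363 and between 40.2 and 68.1 CPM in those groups. The part of either list in the levels of Plxnd1 was not tested.

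Among the secreted ligands, Sema3c stood out in neurons. Sema3c (ENSMUSG00000028780, chromosome 5, 17779279 to 17935266), which attracts cortical axons, stood at 44.1, 63.2 and 44.7 CPM in Ctl RG, 53.9, 57.6 and 60.2 in Ctl IP and 274, 251 and 312 in Ctl N. RG and IP overlapped, and every N library was higher. The log2 fold change was 0.18 ± 0.17 (adjusted p = 0.434) from RG to IP, which did not pass, and 2.29 ± 0.17 (adjusted p = 8.36e-09) from IP to N. Sema3a, which repels cortical axons, stood at 24.8, 25.1 and 22.5 CPM in Ctl RG, 13.9, 16.1 and 11.7 in Ctl IP and 22.1, 18.6 and 17.6 in Ctl N. It was lowest in IP, with -0.80 ± 0.16 (adjusted p = 0.000185) against RG and 0.49 ± 0.16 (adjusted p = 0.0485) for N against IP. That second call sat at the threshold: it was lost with RLE factors (adjusted p = 0.0708), with limma (0.0624), with no filter (0.0985), with only the compared groups in the fit (0.131) and without replicate 1 (0.102) or 3 (0.228) of Ctl IP or replicate 1 (0.227), 2 (0.0859) or 3 (0.0579) of Ctl N. Its adjusted p was 0.0123 with the replicate block. Sema3f, the ligand of Nrp2, was at 23.5 ± 4.90 CPM in Ctl RG, 55.4 ± 25.8 in Ctl IP and 36.7 ± 8.14 in Ctl N. It was higher in IP than in RG by 1.24 ± 0.26 (adjusted p = 0.000452), although replicate 2 of Ctl IP, at 26.7 CPM, lay within the RG range. With the replicate block it was lower in N than in IP (-0.58, adjusted p = 0.0428).

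The other secreted semaphorins were weak. Sema3b stood at 7.70, 6.93 and 6.10 CPM in Ctl RG, 2.43, 1.39 and 1.31 in Ctl IP and 1.82, 0.832 and 1.82 in Ctl N. It was highest in radial glia, lower in IP with a log2 fold change whose 95% interval ran from -2.77 to -1.23 (adjusted p = 0.000121). Sema3d stood at 2.66, 1.79 and 2.02 CPM in Ctl RG, 1.52, 0.728 and 0.653 in Ctl IP and 2.15, 1.05 and 1.82 in Ctl N, with -1.15 ± 0.35 (adjusted p = 0.00967) for IP against RG, a call lost without replicate 1 of Ctl RG (adjusted p = 0.0555) or replicate 3 of Ctl IP (0.0717). Sema3e, the ligand of Plxnd1, averaged between 1.11 and 2.49 CPM over the 6 groups, and Sema3g between 0.539 and 0.991. Neither passed a comparison of control populations, though Sema3e was lower in N than in IP with the replicate block (-1.21, adjusted p = 0.0208).

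Upstream sequence is shown for Sema3c, which was highest in neurons, and for Sema5a, which was highest in radial glia, with build, length and capitals as for the neuropilins.
Sema3c (chr5:17574566-17574815, plus strand): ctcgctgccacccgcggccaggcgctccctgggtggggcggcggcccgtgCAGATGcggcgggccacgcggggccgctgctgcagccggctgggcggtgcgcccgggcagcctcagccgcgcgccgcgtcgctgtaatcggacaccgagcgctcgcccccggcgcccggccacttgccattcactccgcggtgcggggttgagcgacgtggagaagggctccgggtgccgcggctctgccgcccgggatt
Sema5a (chr15:32244563-32244812, plus strand): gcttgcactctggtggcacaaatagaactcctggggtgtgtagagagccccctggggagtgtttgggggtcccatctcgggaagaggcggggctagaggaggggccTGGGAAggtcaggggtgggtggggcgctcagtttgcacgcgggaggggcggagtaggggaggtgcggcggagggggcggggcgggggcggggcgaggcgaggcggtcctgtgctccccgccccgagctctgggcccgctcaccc
The Sema3c stretch holds 1 E-box match and the Sema5a stretch 1 RBPJ match, and neither holds another of the 3 motifs. Both were chosen with their matches known. The stretch before Sema5b, the more abundant class 5 gene in RG, holds none of the 3 motifs. Of the 2 starts of Sema6d, which was also highest in N, 1 has 2 RBPJ matches and the other has no match, and neither has an E-box match.

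The semaphorins of class 5, which carry thrombospondin repeats beside the sema domain, were highest in radial glia. Sema5b (ENSMUSG00000052133, chromosome 16, 35361515 to 35485102) stood at 337, 298 and 257 CPM in Ctl RG, 57.0, 35.3 and 31.3 in Ctl IP and 56.0, 56.3 and 43.1 in Ctl N. Every RG library lay far above every IP and N library. It was lower in IP, at -2.85 ± 0.19 (adjusted p = 3.16e-11), and the step from IP to N did not pass, at 0.33 ± 0.18 (adjusted p = 0.337). Sema5a (ENSMUSG00000022231, chromosome 15, 32244956 to 32696487) stood at 115, 131 and 95.8 CPM in Ctl RG, 40.2, 35.9 and 28.8 in Ctl IP and 29.9, 36.8 and 51.9 in Ctl N. Here too RG lay apart, with -1.71 ± 0.20 (adjusted p = 2.48e-07) for IP against RG and 0.18 ± 0.20 (adjusted p = 0.688) for N against IP. Together they made up 411 ± 52.2 CPM in Ctl RG, 76.1 ± 19.0 in Ctl IP and 91.3 ± 4.81 in Ctl N.

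All 6 transmembrane semaphorins of class 4 were higher in control IP than in control RG, and none passed between IP and N. Sema4f stood at 2.41, 2.74 and 3.56 CPM in Ctl RG, 53.6, 47.6 and 52.7 in Ctl IP and 37.9, 43.7 and 34.1 in Ctl N. It rose from a low level in every RG library, by 4.14 ± 0.19 (adjusted p = 6.87e-14). Sema4d, the ligand of Plxnb1, was at 17.6 ± 1.36 CPM in Ctl RG, 82.4 ± 8.66 in Ctl IP and 93.2 ± 11.4 in Ctl N (2.23 ± 0.13, adjusted p = 3.19e-12 into IP). Sema4g was at 25.0 ± 3.52 CPM in Ctl RG, 128 ± 37.0 in Ctl IP and 100.3 ± 17.8 in Ctl N (2.35 ± 0.19, adjusted p = 7.41e-10). These genes share exonic bases with a gene on the other strand, Sema4d 13.7% with Secisbp2 and Sema4g 12.7% with Mrpl43, and so does Sema4c (16.8%). Sema4a was at 2.65 ± 0.215 CPM in Ctl RG, 17.9 ± 6.30 in Ctl IP and 13.8 ± 2.33 in Ctl N, and rose by 2.76 ± 0.22 (adjusted p = 5.79e-10) into IP. Sema4c, a ligand of Plxnb2, rose by 1.68 ± 0.21 (adjusted p = 4.59e-07), from 3.36 to 10.7 CPM. Sema4b, at 64.3 ± 6.37 CPM in Ctl RG, 90.1 ± 17.99 in Ctl IP and 110.1 ± 1.76 in Ctl N, had the smallest difference of the 6, 0.49 ± 0.16 (adjusted p = 0.0197), and its call was lost with upper-quartile factors (adjusted p = 0.106), with limma (0.0629), without replicate 2 of Ctl IP (0.129) and without replicate 3 of Ctl RG (0.0779). With the replicate block Sema4g was lower in N than in IP (-0.34, adjusted p = 0.0472).

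The class 6 semaphorins, which can also act as receptors, were all higher in IP than in RG, and from IP to N Sema6d rose, Sema6a fell, and Sema6b and Sema6c did not pass. Sema6d (ENSMUSG00000027200, chromosome 2, 123931889 to 124509690), a ligand of Plxna1, stood at 9.89, 13.9 and 6.77 CPM in Ctl RG, 41.5, 34.7 and 34.6 in Ctl IP and 181, 170.4 and 196 in Ctl N. It rose at both steps without overlap, by 1.88 ± 0.18 (adjusted p = 8.17e-09) and 2.31 ± 0.17 (adjusted p = 8.36e-09). Sema6b stood at 2.83, 1.56 and 1.41 CPM in Ctl RG, 67.5, 37.1 and 44.2 in Ctl IP and 53.6, 43.1 and 29.6 in Ctl N. It rose into IP by 4.63 ± 0.33 (adjusted p = 6.4e-11) and was at -0.24 ± 0.27 from IP to N, which did not pass (adjusted p = 0.691). Sema6a, a ligand of Plxna2 and Plxna4, stood at 42.1, 55.3 and 41.9 CPM in Ctl RG, 73.6, 80.8 and 82.4 in Ctl IP and 31.9, 36.3 and 21.0 in Ctl N. It was highest in IP, 0.77 ± 0.16 (adjusted p = 0.000481) against RG, and lowest in N, -1.41 ± 0.17 (adjusted p = 2.34e-06) against IP and -0.64 ± 0.16 (adjusted p = 0.00292) against RG. Sema6c was at 4.26 ± 1.80 CPM in Ctl RG, 60.2 ± 26.6 in Ctl IP and 94.9 ± 15.2 in Ctl N, higher in IP by 3.80 ± 0.34 (adjusted p = 3.31e-09), and its step from IP to N, 0.65 ± 0.29, did not pass (adjusted p = 0.199). With the replicate block that step was called in control cultures (0.68, adjusted p = 0.0245) and not in treated ones (0.37, adjusted p = 0.257). Sema7a, which is tied to the membrane by a lipid anchor and binds Plxnc1, stood at 0.755, 0.670 and 0.828 CPM in Ctl RG, 16.6, 12.04 and 13.8 in Ctl IP and 18.9, 17.1 and 15.3 in Ctl N. It was close to silent in RG, rose into IP by 4.21 ± 0.28 (adjusted p = 2.05e-11) and was at 0.27 ± 0.22 (adjusted p = 0.568) from IP to N, which did not pass. Its receptor Plxnc1 was at its highest in RG, as given above.

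**Figure D3:**
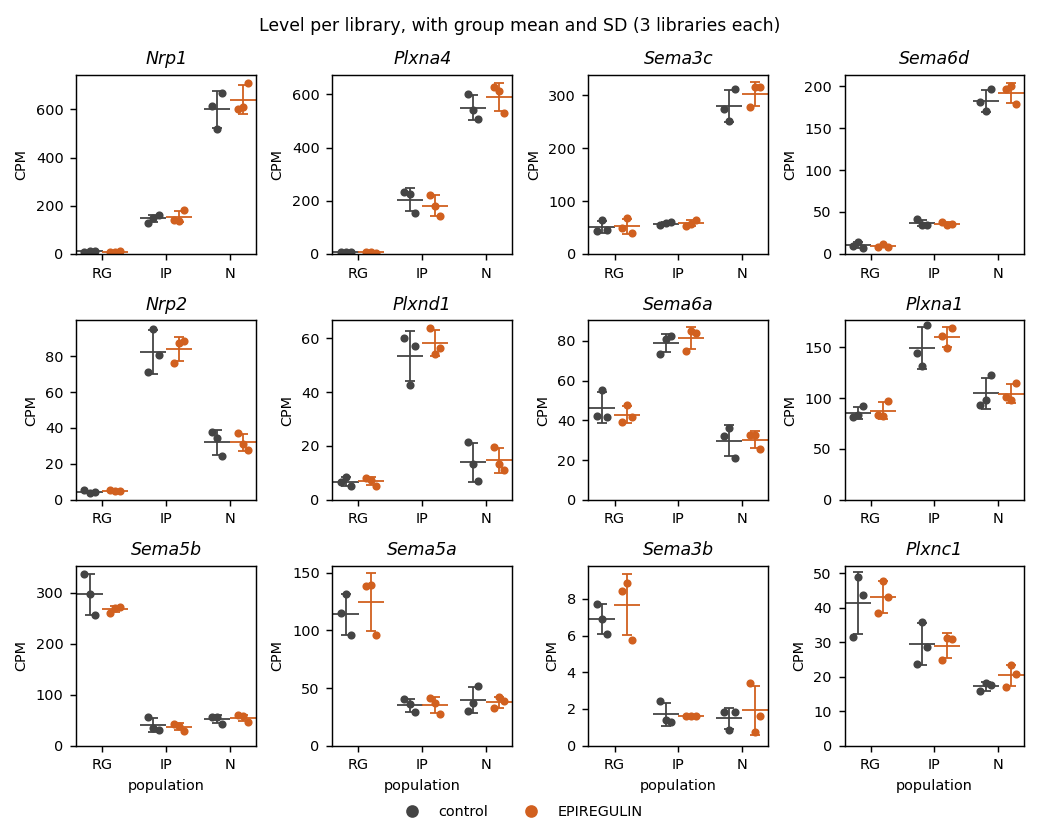
CPM of 12 of the genes in each library (points), with the mean and SD of each group of 3 (bars), by population, control in grey and EPIREGULIN in orange, and every vertical axis starts at 0. The top row rises to N, the middle row peaks in IP, and the bottom row is highest in RG.

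Levels of different genes were compared per length, as reads per base of exon on the usual TPM scale. In Ctl RG the highest semaphorin was Sema5b at 134 TPM, followed by Sema4b at 34.4, Sema3c at 22.0 and Sema5a at 19.8, and the highest plexin was Plxnb2 at 113, ahead of Plxna3 at 48.3. In Ctl IP the order of semaphorins was Sema4b at 40.1, Sema4g at 39.9 and Sema3f at 28.5 TPM, with Plxna2 at 107 and Plxna3 at 86.2 leading the plexins. In Ctl N Sema3c stood first at 96.1, then Sema4b at 46.8 and Sema6d at 44.5 TPM. Plxna2 at 129, Nrp1 at 111 and Plxna4 at 106 TPM were the highest receptors of N. Neighbours in these orders were not tested against each other.

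The same comparisons in EPIREGULIN cultures used 9 other libraries. Plxna4 stood there at 6.65, 5.93 and 5.04 CPM in Epi RG, 222, 180.4 and 144 in Epi IP and 626, 614 and 528 in Epi N. Sema5b stood at 261, 270.3 and 272 CPM in Epi RG, 42.2, 38.6 and 29.1 in Epi IP and 59.2, 57.3 and 47.1 in Epi N. As in the control cultures, every RG library lay below the rest for Plxna4 and above the rest for Sema5b. Sema3c stood at 48.5, 68.2 and 39.1 CPM in Epi RG, 53.3, 57.2 and 65.1 in Epi IP and 277, 315 and 315 in Epi N, again with every N library above the others. Sema6d stood at 8.84, 11.4 and 8.38 CPM in Epi RG, 38.0, 34.2 and 36.2 in Epi IP and 197, 200.5 and 178 in Epi N. Epi IP against Epi RG gave 18 higher and 7 lower genes of the 31, where 42.7% of all genes were called. Where the mean log2 CPM reached 1, 62.9% of genes were called, and 25 of the 27 guidance genes at that level. All 25 were called in the same direction in the control cultures, which is 92.6% of the 27 there and 100% of the 25. Sema3d (-0.67 ± 0.33, adjusted p = 0.118, 0.0466 with the replicate block, where 48.6% of all genes were called) and Sema4b (0.15 ± 0.16, adjusted p = 0.503) were called in controls and not here. Epi N against Epi IP gave 6 higher and 5 lower, where 11.0% of all genes were called. At the same mean level 17.5% of genes were called, and 11 of the 27 guidance genes there. Upper-quartile factors made 1477 of 3431 called genes higher in Epi N, in place of 822 of 3216, and left the 31 at 6 and 5. Of the 11, 9 were called alike in controls, 90% of the 10 there and 81.8% of the 11, while Plxnc1 (-0.50 ± 0.17, adjusted p = 0.0678) was called in controls alone, and Sema3f (-1.05 ± 0.26, adjusted p = 0.00776) and Sema5b (0.57 ± 0.18, adjusted p = 0.0469) in treated cultures alone. The tests of these differences between treated and control cultures are the tests of the treatment effect between populations, and none of them passed. With the replicate block 17 were called, 8 higher and 9 lower, where 16.8% of all genes were called, with Plxna2 (0.0161), Plxnb1 (0.0253), Plxnc1 (0.000616), Sema4a (0.0192), Sema4g (0.00406) and Sema6b (0.0339; adjusted p) added. Sema5b was lost with RLE factors (adjusted p = 0.0573) and without replicate 2 (0.0919) or 3 (0.252) of Epi IP or replicate 1 (0.160) or 2 (0.153) of Epi N. Epi N against Epi RG called 22, the same 22 genes in the same directions as in controls (100% of each list). Here 39.7% of all genes were called, and 60.2% of those whose mean log2 CPM reached 1. The block, with which 45.8% of all genes were called, added Plxna1 (0.00827), Plxnb2 (0.0209) and Sema3g (0.0497; adjusted p). Libraries that share a replicate number were alike, so the treated set is not fully independent of the control set.

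**Figure D4:**
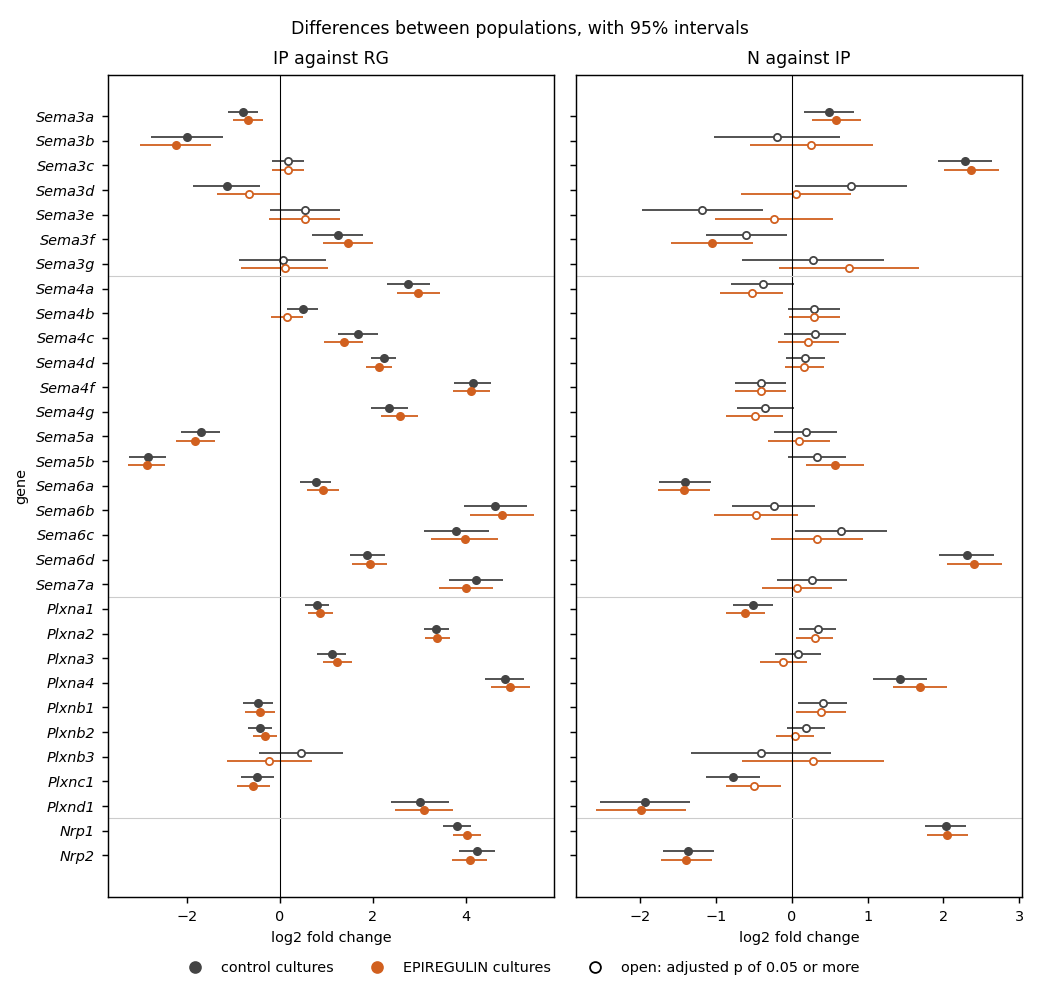
Log2 fold change of each of the 31 genes with its 95% interval, for IP against RG and for N against IP, in control (grey) and EPIREGULIN cultures (orange), filled where the adjusted p is under 0.05 and open otherwise. Grey and orange points lie close together for most genes, Nrp2, Plxnd1 and Sema6a are right of 0 in the first panel and left of it in the second, and the intervals are widest for weak genes such as Sema3g and Plxnb3.

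The comparison of Epi with Ctl asked whether the growth factor changed these genes within a population. No gene of the 31 was called by edgeR in RG, IP or N or in their mean (0 of 31 each, where 0% of all genes were called in each of the 4 comparisons), and DESeq2 and limma also called 0 of the 31. At an unadjusted p under 0.05 there were 0, 0, 1 and 0 of the 31 in RG, IP, N and their mean, where 1.63%, 1.82%, 2.56% and 2.86% of all genes had one. The 1 was Sema7a in N, at 18.9, 17.1 and 15.3 CPM in Ctl N and 14.6, 13.3 and 9.14 in Epi N. Its treated libraries all lay below the controls, with a log2 fold change of -0.47 ± 0.22 (95% interval from -0.93 to -0.00460, unadjusted p = 0.0480, adjusted p = 1). The next smallest p values in N were those of Sema4b (-0.27 ± 0.16) and Plxnc1 (0.25 ± 0.18). In RG they were those of Plxna4 (-0.29 ± 0.19), Sema3e (-0.42 ± 0.37) and Nrp1 (-0.14 ± 0.14), and in IP those of Sema4b (-0.27 ± 0.16), Plxnb3 (-0.59 ± 0.45) and Sema7a (-0.27 ± 0.22). For the mean over populations they were Sema7a (-0.26 ± 0.15), Sema4b (-0.16 ± 0.09) and Plxna4 (-0.12 ± 0.10), and none of these passed (edgeR, adjusted p of at least 0.9999).

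Within each population, same-number libraries of Ctl and Epi were more alike than those with different numbers. The edgeR fit with the replicate block also called 0 of the 31, and the share of all genes it called is not set beside this count. Its unadjusted p was under 0.05 for 1, 1, 3 and 3 of the 31 in RG, IP, N and their mean, where 2.67%, 3.24%, 4.13% and 5.05% of all genes had one. These were Plxna4 in RG (-0.29 ± 0.11), Sema4b in IP (-0.28 ± 0.14), Sema7a (-0.48 ± 0.16), Plxnc1 (0.24 ± 0.10) and Sema4b (-0.28 ± 0.13) in N, and Sema7a (-0.28 ± 0.11), Sema4b (-0.17 ± 0.08) and Plxna4 (-0.12 ± 0.06) in the mean, each with its log2 fold change ± SE. The lowest adjusted p among the 31 was 0.966. Of the differences between populations, 1 of the 31 had an unadjusted p under 0.05 with the block, Plxna4 for N minus RG (0.39 ± 0.14, adjusted p = 1.00 in edgeR).

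A p that misses the threshold does not show that the genes stayed the same, so the intervals of the fit without the block are given. The 95% interval of the mean effect lay within a 2-fold change in both directions for all 31 genes, and within 1.5-fold for 28, Plxnb3, Sema3b and Sema3g being the exceptions. Within single populations it lay inside 2-fold for 29 genes in RG, 27 in IP and 26 in N. The genes outside were the weak ones, Sema3e and Sema3g in RG, with Plxnb3 and Sema3d in IP and Sema3b also in N. For Nrp1 the interval was from -0.43 to 0.14 in RG, from -0.19 to 0.33 in IP and from -0.17 to 0.35 in N on the log2 scale, and for Sema5b it was from -0.52 to 0.22, from -0.55 to 0.21 and from -0.30 to 0.45. The difference of the treatment effect between populations was also tested (IP minus RG, N minus IP and N minus RG). EdgeR, DESeq2 and limma called 0 of the 31 in each of these differences, where edgeR called 0% of all genes. At an unadjusted p under 0.05 there were 0 of the 31 in each of these without the block. Each of these differences had an interval within 2-fold for 23 genes, and 22 genes had all 3 within it. The others were Plxnb3, Sema3b, Sema3d, Sema3e, Sema3f, Sema3g, Sema6b, Sema6c and Sema7a.

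**Figure D5:**
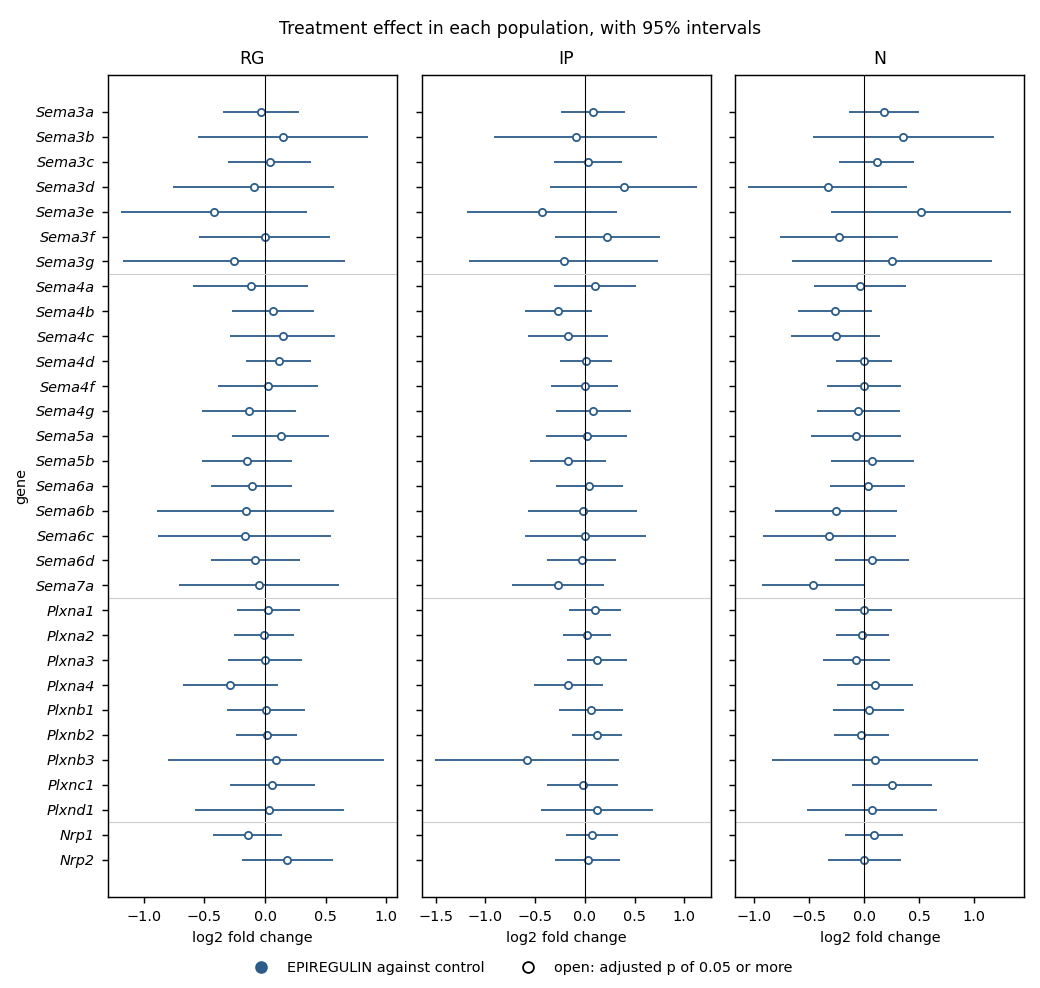
Log2 fold change of EPIREGULIN against control for each of the 31 genes with its 95% interval, in RG, IP and N. All points are open, since no adjusted p was under 0.05, every interval except that of Sema7a in N includes 0, and the intervals of Plxnb3, Sema3d, Sema3e and Sema3g are the wide ones.

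Further genes of the pathway were taken from a list of 36 that relay or modulate semaphorin signals. In control IP against RG, 20 were higher and 6 lower, with a median of 0.65. That is 26 of 36, where 41.3% of all genes were called, and 61.5% of those whose mean log2 CPM reached 1. The 36 hold weak genes too and were not split by level, here or in the comparisons below. The adhesion proteins L1cam and Chl1, which join neuropilins in receptor complexes, rose by 6.71 ± 0.17 (adjusted p = 6.25e-18) and 6.69 ± 0.16 (adjusted p = 2.41e-18). Crmp1, a cytoskeletal relay of Sema3a, rose by 5.45 ± 0.15 (adjusted p = 2.48e-17) and Cdk5r1, the activator of the kinase that phosphorylates such relays, by 5.46 ± 0.19 (adjusted p = 6.65e-16). Rras, a small GTPase on which plexins act, was lower, at 24.5 ± 5.29 CPM in Ctl RG, 2.44 ± 0.353 in Ctl IP and 1.05 ± 0.379 in Ctl N (-3.34 ± 0.23, adjusted p = 5.63e-11), as were Vegfa (-1.64), Itga1 (-1.42) and Rhod (-3.47). Rhod was weak throughout, at 2.79 ± 1.24 CPM in Ctl RG and 0.247 ± 0.134 in Ctl IP. Vegfa encodes VEGF-A, which Nrp1 also binds, and stood at 539 ± 52.0 CPM in Ctl RG, 172 ± 18.4 in Ctl IP and 215 ± 25.6 in Ctl N. From IP to N, 2 were higher, Cntn2 (1.65 ± 0.23, adjusted p = 1.9e-05) and Fyn (0.42 ± 0.13, adjusted p = 0.0407), and 10 lower, led by Dpysl4 (-2.75 ± 0.26, adjusted p = 1.57e-07), Rnd1 (-0.99), Mical2 (-1.59) and Farp1 (-0.75), with a median of -0.16. The 12 calls of 36 stand beside 10.3% of all genes, and 16.4% of the well-expressed ones. They became 6 with only the compared groups in the fit and 7 without replicate 3 of Ctl N. The share of all genes called in those fits is not set beside them. Between N and RG, 18 were higher and 7 lower, with a median of 0.44, where 38.7% of all genes were called, and 59.4% of the well-expressed ones. L1cam (6.46), Chl1 (6.15), Crmp1 (5.02) and Cdk5r1 (5.31) were again higher, and Rras (-4.55), Rnd1 (-1.59), Vegfa (-1.33) and Dpysl4 (-1.70) lower. For the mean treatment effect edgeR, DESeq2 and limma called 0 of the 36, with 0 at an unadjusted p under 0.05. Within populations 1 of the 36, Fes, a tyrosine kinase, had an unadjusted p under 0.05, in N (0.99 ± 0.33, adjusted p = 1 in edgeR). The difference of its effect was 1.24 for N minus IP and 1.02 for N minus RG, also with an unadjusted p under 0.05, and neither passed edgeR's adjustment.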

How the data were processed

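The submitters' processing notes name GRCm39 as the build and list featureCounts 2.0.1, cutadapt 2.6 and bcl2fastq 2.20.0. Which aligner was used they do not say. Libraries were SmartSeq 2, which is unstranded and has no molecular identifiers, per the labels' protocols. The table deposited by the authors holds whole-number counts of reads for each gene, 1 column per library. Of 55508 rows, 92 were spike-in sequences with at most 7 reads per library, left out here, and the column headings Strand and GeneBiotype had changed places.

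Genes were filtered by filterByExpr (29355 kept) and fitted in edgeR 4.0.16 (R 4.3.3) with TMM factors and 1 mean per group over all 18 libraries, without a replicate term, and comparisons were tested as two-sided contrasts. CPM values use TMM factors. Errors are SD over 3 libraries, or SE of the log2 fold change. TPM used the union of exons of GENCODE vM39, found for 98.8% of genes.

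Values in every control library are given for the 6 largest called changes in each direction, in IP against RG and N against IP, whose libraries did not overlap and whose mean log2 CPM reached 1 in either group, and for every gene called under treatment. With fewer than 3 such, the 3 smallest p values are listed as not passing. Of the pathway list, up to 4 called genes per direction, those with the smallest p, are named. The genes, lists and tests were chosen with earlier results of these data known. The test was tried on simulated counts.

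The labels do not say what a shared replicate number means. After removal of group means, across 11210 genes, same-number libraries correlated at 0.160 to 0.677 between Ctl and Epi of a population, 0.281 to 0.632 between Ctl RG and Ctl IP, 0.175 to 0.562 between Ctl IP and Ctl N, 0.245 to 0.573 between Epi RG and Epi IP, 0.155 to 0.669 between Epi IP and Epi N, and 0.105 to 0.493 between Epi RG and Epi N. For libraries with different numbers the highest values were, in that order, 0.118, 0.117, 0.047, -0.039, 0.036 and 0.06. So the numbers pair these groups, but narrowly for Ctl IP with Epi IP and for Epi RG with Epi N. Between Ctl RG and Ctl N same-number libraries correlated at 0.095 to 0.604, against -0.575 to 0.077 for libraries with different numbers. Some pairs that differ in treatment and population overlapped, such as Ctl IP and Epi N (0.007 to 0.602 against -0.509 to 0.229). The block assumes 1 pairing over all 18 libraries. The alternatives tried were upper-quartile and RLE factors, no filter, DESeq2 1.42.0, limma 3.58.1 voom with quality weights, only the compared groups, the replicate number as a block, and each library left out in turn.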

Additional observations from a re-analysis of the deposited data

How the results depend on the processing

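Of the 117 called differences of single genes between populations, 16 lost their call under at least 1 alternative run, and the others kept call and direction. No called difference reversed. The replicate block lost no call and moved the count from 10 to 16 between Ctl N and Ctl IP, and from 11 to 17 between Epi N and Epi IP, where limma also gave 17. It added Plxna1 (0.00427), Plxnb2 (0.0494) and Sema3f (0.00897; adjusted p) between Ctl N and Ctl RG. There same-number libraries correlated at 0.095 or more and libraries with different numbers at 0.077 or less. That gap was small, as it was between Epi RG and Epi N and between Ctl IP and Epi IP. For these pairs the block is only a hint from the data. It added Sema3d between Epi IP and Epi RG (adjusted p = 0.0466) and left the treatment comparisons at 0. Calls of pathway genes between Ctl N and Ctl IP, 12 in the main result, were 6 with only the compared groups in the fit and 7 to 10 with 1 library left out, fits that hold fewer libraries by construction. With 1 library left out, the 31 genes gave 24 to 26 calls between Ctl IP and Ctl RG, 8 to 12 between Ctl N and Ctl IP and 22 to 23 between Ctl N and Ctl RG. In the treated cultures they gave 23 to 24, 9 to 12 and 20 to 23. The share of all genes called is not set beside the counts from limma, from only the compared groups or from left-out libraries. Nor is it set beside the calls of the block between Ctl N and Ctl RG or under treatment. All such counts show how far a number depends on the fit, and not a trait of the genes listed. Where a fit left a group with 2 libraries, the spread was shared with the other groups. Besides the calls named with their genes, those of Plxnb1, Plxnb2, Plxnc1, Sema3a, Sema3f, Sema4b and Sema6a in treated cultures were lost under some alternative. Of the uncalled treatment effects listed, 1 changed sign: Plxnb3 in IP, -0.59 in the main result, ran from -0.969 without replicate 3 of Ctl IP to 0.054 without replicate 2 of Ctl IP. Upper-quartile factors moved the median of all genes between Ctl IP and Ctl RG from -0.063 to -0.176 on the log2 scale and gave 18 higher and 8 lower of the 31, between Epi IP and Epi RG from -0.073 to -0.177, with 18 higher and 7 lower, and between Epi N and Epi IP from 0.036 to 0.144, with 6 higher and 5 lower, as in the main result. Weak genes, with few reads per library, carry the widest intervals.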

Other observations

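Interneuron transcripts differed between replicates of N in the same way in both treatments. The 10 markers, which include the GABA-synthesising enzymes Gad1 and Gad2, summed to 67.6, 219 and 17.1 CPM in replicates 1, 2 and 3 of Ctl N and to 115, 217 and 21.9 in those of Epi N. Plxnd1 in the same libraries stood at 21.4, 13.5 and 6.96 CPM in Ctl N and 19.7, 13.1 and 11.0 in Epi N, highest in replicate 1 and lowest in replicate 3 of each. Sema6c also differed between replicates of IP, at 84.1, 31.5 and 64.9 CPM in Ctl IP and 81.2, 55.4 and 45.0 in Epi IP.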
